A study of Mus musculus with 10 samples.

Results

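The genes described are 43 genes of the motile cilium and of the ependymal cells that carry it, taken by symbol from the table of 21230 genes. Of these, 41 had a row and 40 had a mean normalized count of at least 10 over the 10 libraries and were tested. Dnah12 and Spag6l had no row of that name, and Stoml3 was below the limit. Each library came from a striatal punch of a BACHD mouse, of an FVB/N line that carries a human mutant HTT transgene with 97 mixed CAA-CAG repeats beside the mouse Htt gene, and every mouse of both groups carried it. Of the 10 mice, 5 received SPI-24, one of the compounds called SPIs that inhibit the transcription elongation factor Spt5, from an osmotic pump under the skin filled at 80 mM for 56 days. The other 5, called DMSO here, received the vehicle, a mix of DMSO and polyethylene glycol, by the same route. The pump was replaced part way through the treatment. Treatment started at 3 months of age, and the labels used here give no sex. Each library is labelled as a separate biological replicate. The question addressed is whether the level of these genes differed between SPI-24 and DMSO after long treatment.

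Ependymal cells form the lining of the brain ventricles and carry bundles of motile cilia that beat and move the cerebrospinal fluid. The core of such a cilium, the axoneme, is a ring of doublet microtubules around a central pair. Rows of outer and inner dynein arms bend it, while radial spokes, the nexin-dynein regulatory complex and the central pair control the beat. The transcription factor Foxj1, together with factors of the RFX family, switches on many of these genes, which are in part also used in the airway, the oviduct and the sperm tail. The lateral ventricle borders the striatum, so a punch can hold more or less of this lining.

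The libraries held 7.38 to 29.6 M reads assigned to genes in the SPI-24 group and 5.48 to 46.9 M in the DMSO group. DMSO replicate 3 was the shallowest, with reads for 12027 genes, and DMSO replicate 5 the deepest, with reads for 18148. Values are normalized counts, that is read counts divided by a size factor of the library. The value of 1 read lay between 0.363 and 3.42. A log2 fold change is SPI-24 minus DMSO, on log2(normalized count + 1) unless edgeR or DESeq2 is named. On that scale the added 1 shrinks differences of low counts, while a library at 0 weighs heavily. Values can lie further from 0 than by DESeq2, as for Cfap126 (-2.22 by limma, -0.58 by DESeq2) and Tmem212 (-2.67 and -1.36). They can also lie nearer, as for Erich2 (-4.95 and -8.69).

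The members lay on 16 chromosomes, with at most 6 on any 1 of them. They were of low to moderate level, and the means of those tested ran from 12.4 normalized counts for Sntn to 388 for Efcab1, with a median of 53.1. Per kb of exon, the highest mean levels were 174 normalized counts for Fam183b, 113 for Rarres2, 92.3 for Ccdc153, 87.5 for Efcab1 and 86.0 for Foxj1. The lowest was 0.995 per kb for Hydin, a very large protein of the central pair. Foxj1, which defines cells that build motile cilia, had reads in all 10 libraries. The ependymal markers Ccdc153 and Tmem212 had none in 3 and in 6 libraries, so the label was borne out by its defining regulator but unevenly by the other markers.

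No member passed an adjusted p of 0.05 by limma. The share of all 15871 genes tested that passed was 0%, and the lowest adjusted p of a member was 0.999. At an unadjusted p under 0.05, 4 of 40 members were lower in SPI-24, which is 10% beside 1.27% of all genes, and 0 were higher beside 0.958% of all genes. The 4 were Efcab1, Erich2, Ak7 and 1700012B09Rik. Efcab1, Erich2 and Ak7 are on the study's own list of genes lower after long SPI-24 treatment. They were taken as members with that list known, so this share is no independent support. By edgeR on the recovered reads no gene passed either, and 4 members were lower at an unadjusted p under 0.05, beside 1.25% of all genes with TMM and 1.29% with the deposited size factors. By DESeq2 there were 5 such members, beside 1.5% of all genes with its defaults and 1.76% without its filtering. The groups did not overlap, with SPI-24 lower, for 0 members, beside 0.321% of all genes. These are RNA levels of a tissue piece, in which fewer ependymal cells and less RNA per cell cannot be told apart.

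The median log2 fold change of the 40 members was -0.82, beside 0.00 for all genes tested. Setting the 3 genes without reads in SPI-24 at the limit of 3 reads per library left it the same. That outcome was fixed, since the 3 genes stayed below the median. Of the members, 29 lay below 0 and 11 above. That is 72.5% below 0, against 49.8% of all genes. A log2 fold change of -1 or less was found for 18 members (45%), beside 11.4% of all genes, and one of 1 or more for 2 members (5%), beside 10.4%. The errors were large. The median standard error of a member was 1.65 on the log2 scale, against 0.47 over all genes, and the interval of 36 members contained 0. No member had an interval within 2-fold of equal levels, so an absence of change was not shown for any of them. The median was -1.66 without DMSO replicate 3, -0.35 without DMSO replicate 4 and -0.42 without DMSO replicate 1. The number of members at -1 or less was 25 without DMSO replicate 3 and 12 without DMSO replicate 4, while it was 13 without DMSO replicate 1.

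**Figure D1:**
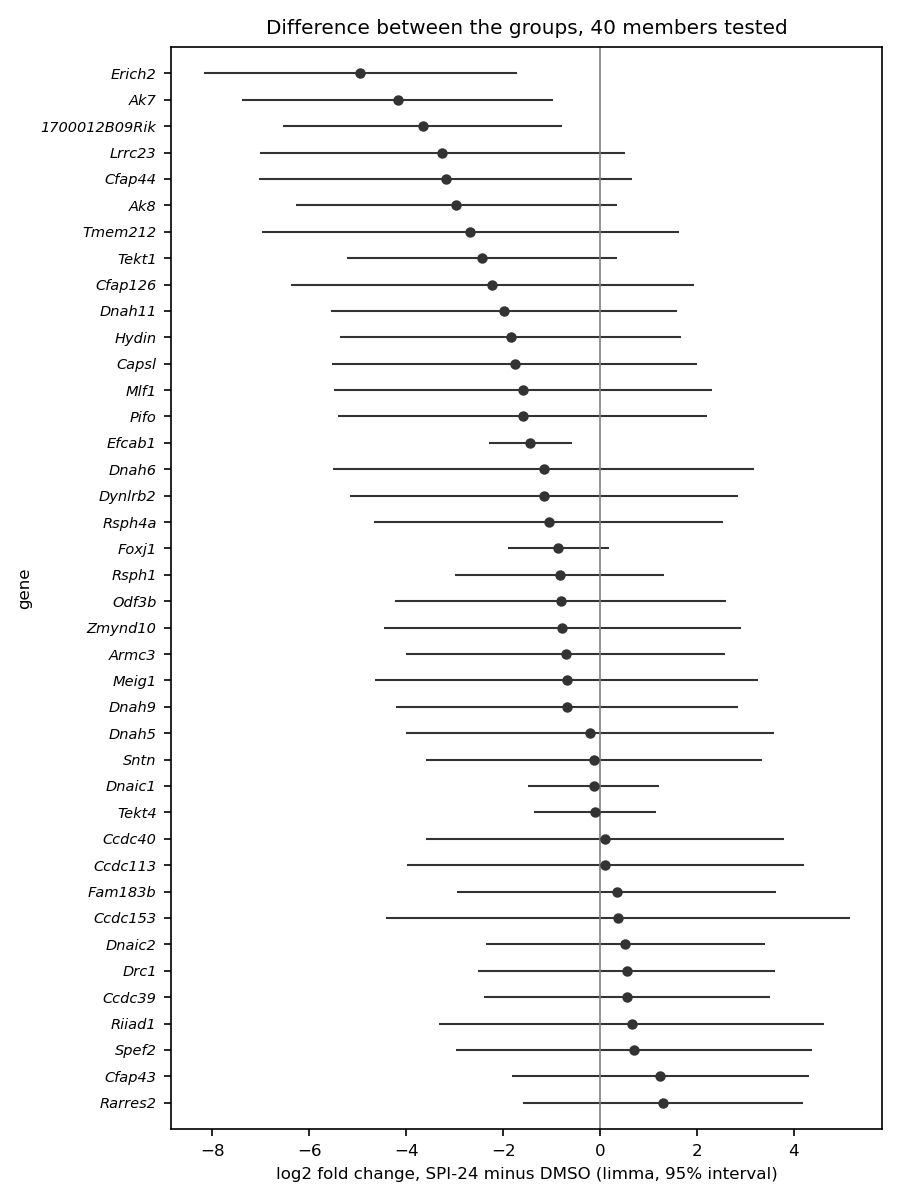
Log2 fold change of SPI-24 minus DMSO (horizontal axis) for each of the 40 members tested (vertical axis), points with 95% intervals by limma, 5 libraries a group. Of the 40 intervals, 36 cross 0, and Erich2, Ak7, 1700012B09Rik and Efcab1 lie wholly below it.

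Foxj1, the regulator of the programme, lies on chromosome 11 at 116330704 to 116335399 of GRCm38. Its normalized counts were 213, 116, 113, 98.0 and 252 in the SPI-24 libraries 1 to 5, against 218, 245, 232, 572 and 195 in the DMSO libraries 1 to 5. In SPI-24, 3 of 5 libraries were below the lowest DMSO library, and the groups overlapped. The means were 158 ± 69.4 in SPI-24 and 293 ± 158 in DMSO (SD, n = 5 each). The difference was -0.86 ± 0.49 (SE) on the log2 scale, with an interval of -1.91 to 0.18 (limma, adjusted p = 0.999).

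Efcab1 encodes calaxin, a calcium-binding protein of the outer dynein arm, and lies on chromosome 16 at 14906606 to 14981371 of GRCm38. It was the member of smallest unadjusted p. Its normalized counts were 234, 266, 194, 173 and 128 in the SPI-24 libraries 1 to 5, against 794, 399, 872, 568 and 249.99 in the DMSO libraries 1 to 5. The SPI-24 values lay close together, and 4 of them were below the lowest DMSO value. Only SPI-24 replicate 2 exceeded a DMSO library, DMSO replicate 5, which was the deepest one. The means were 199 ± 53.4 in SPI-24 and 576 ± 261 in DMSO (SD, n = 5 each), and the difference on the log2 scale was -1.44 ± 0.40 (SE), with an interval of -2.29 to -0.58 (limma, unadjusted p = 0.00292, adjusted p = 0.999). Its level was high in DMSO replicate 3, at 255 recovered reads, where most members had no read.

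None of the other outer arm genes had an interval that excluded 0. Dnaic1, an intermediate chain that holds the arm together, averaged 207 ± 146 normalized counts in SPI-24 and 191 ± 78.4 in DMSO (SD, n = 5 each), with a log2 fold change of -0.13 and an interval of -1.48 to 1.23. Dnaic2, its partner chain, had a log2 fold change of 0.52. The heavy chains Dnah5, Dnah9 and Dnah11, the motors themselves, had log2 fold changes of -0.20, -0.68 and -1.98, each with an interval that reached more than 3 log2 units to either side. Of the 6 outer arm members, 5 lay below 0, but the number was 3 without SPI-24 replicate 3 or without SPI-24 replicate 5. Dnah6, an inner arm heavy chain, had a log2 fold change of -1.17 by limma and 0.90 by edgeR with TMM. Its highest values were those of SPI-24 replicates 2 and 5, at 243 and 302 normalized counts, against a highest DMSO value of 125.

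Erich2, Ak7 and 1700012B09Rik had no read in any SPI-24 library. This was 3 of the 40 members (7.5%), beside 0.523% of all genes tested, and 0 members had no read in any DMSO library, beside 0.479% of all genes. With no read in SPI-24, these 3 members passed the limit on the mean through their DMSO values alone. Erich2 and Ak7 are also on the study's own list of lower genes, so this share is no independent support. Ak7 is an adenylate kinase of the cilium, an enzyme that interconverts adenine nucleotides, and its loss in mice impairs ciliary beating and leads to hydrocephalus. The windows around the start sites of these 3 genes and of Lrrc23 are shown because these members stood lowest by fitted fold change, and because motif letters in them can be set beside the share over all promoters. Each is 300 bases from RefSeq on GRCm38.p6, from 250 bases before the start to 50 after it, written 5′ to 3′ on the strand of the gene. Erich2 is read from chr2:70508569-70508868 on the plus strand, Ak7 from chr12:105705732-105706031 on the plus strand, 1700012B09Rik from chr9:14770981-14771280 on the minus strand and Lrrc23 from chr6:124779678-124779977 on the minus strand. Capitals mark an X-box, the full RFX pattern of 2 half-sites facing each other with 0 to 3 bases between them, in Erich2 and at the first run of Lrrc23. They mark GTTGCC, a half-site letter pattern of RFX factors, in 1700012B09Rik and at the second run of Lrrc23, and TGTTTAC, a forkhead letter pattern, in Ak7.
Erich2: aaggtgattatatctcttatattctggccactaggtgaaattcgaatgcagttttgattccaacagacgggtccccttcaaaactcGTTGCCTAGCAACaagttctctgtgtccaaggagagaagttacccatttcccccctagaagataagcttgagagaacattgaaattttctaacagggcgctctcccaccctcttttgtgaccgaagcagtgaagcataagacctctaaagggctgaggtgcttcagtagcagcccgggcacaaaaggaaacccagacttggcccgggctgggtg
Ak7: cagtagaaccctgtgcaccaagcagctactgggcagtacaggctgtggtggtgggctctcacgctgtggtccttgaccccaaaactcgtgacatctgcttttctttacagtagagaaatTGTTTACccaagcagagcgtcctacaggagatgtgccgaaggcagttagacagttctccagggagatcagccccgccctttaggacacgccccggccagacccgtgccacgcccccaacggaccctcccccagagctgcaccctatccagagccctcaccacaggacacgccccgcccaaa
1700012B09Rik: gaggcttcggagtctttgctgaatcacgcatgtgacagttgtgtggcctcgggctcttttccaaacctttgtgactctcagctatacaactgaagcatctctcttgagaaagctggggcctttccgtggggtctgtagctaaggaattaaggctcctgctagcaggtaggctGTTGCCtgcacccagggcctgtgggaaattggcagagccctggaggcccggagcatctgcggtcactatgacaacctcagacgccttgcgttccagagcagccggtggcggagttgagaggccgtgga
Lrrc23: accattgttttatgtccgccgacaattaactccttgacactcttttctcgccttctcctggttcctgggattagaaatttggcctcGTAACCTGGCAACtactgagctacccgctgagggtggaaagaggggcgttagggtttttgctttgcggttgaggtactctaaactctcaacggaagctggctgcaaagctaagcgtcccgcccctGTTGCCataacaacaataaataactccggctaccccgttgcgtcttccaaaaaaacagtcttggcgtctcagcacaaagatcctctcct

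Of the 41 members in the table, 35 had a promoter in the RefSeq table. The half-site GTTGCC was found on either strand in 18 of these 35 (51.4%), against 14.1% of all 27025 genes with such a window. The X-box in its usual consensus was found on either strand in 8 members (22.9%), against 1.75% of genes, namely Cfap44, Dnaic1, Dnaic2, Dynlrb2, Erich2, Hydin, Lrrc23 and Spef2. Each X-box other than that of Dnaic1 overlapped a match of GTTGCC. Another X-box pattern, whose 2 half-site patterns are reverse complements of each other, had been searched first. It was found in Lrrc23 and Spef2 alone (5.71%), against 1.37% of genes, and neither matched site was itself a palindrome. The forkhead pattern TGTTTAC was found on either strand in 5 members (14.3%), against 4.05% of genes, namely Ak7, Cfap43, Mlf1, Sntn and Stoml3. The half-site was present both in members far below 0, such as Erich2, and in Drc1, which had a log2 fold change above 0.

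Erich2 had 0 normalized counts in each of the 5 SPI-24 libraries, against 233, 62.4, 0, 109 and 16.4 in the DMSO libraries 1 to 5. DMSO replicates 1 and 4 were high, DMSO replicate 3 was at 0 like the SPI-24 libraries, and DMSO replicate 5 was low. Taking 3 reads in each SPI-24 library as the limit, Erich2 was at least 20.5-fold lower in SPI-24, or at least 11.5-fold lower with DMSO replicate 1 left out, a limit that covers counting error only. The limma interval was -8.18 to -1.72 (unadjusted p = 0.00527, adjusted p = 0.999). DESeq2 with its defaults called it at an adjusted p of 0.00583, 1 of 3 genes called of all tested (0.0189%). The study's own list, made with DESeq2 on these libraries, already holds Erich2, so this call is no independent support. Erich2os, an antisense gene that overlaps Erich2, had 10.7 and 76.6 normalized counts in SPI-24 replicates 3 and 5 and 0 in every DMSO library. Whether the counting used strand was not given in the sources used here.

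Ak7 likewise had 0 normalized counts in each SPI-24 library, against 149, 11.8, 0, 148 and 5.81 in the DMSO libraries 1 to 5. DMSO replicates 1 and 4 carried nearly all of it. By the same limit for counting error only, it was at least 15.3-fold lower in SPI-24, or at least 10.1-fold lower without DMSO replicate 1. The second value still rests on DMSO replicate 4. The limma interval, which holds the spread between libraries, was -7.38 to -0.97 (unadjusted p = 0.0142, adjusted p = 0.999). DESeq2 gave it an adjusted p of 0.0217 when outlier and independent filtering were off, where 0.107% of all genes were called, and did not call it with its defaults. Ak7 too is on the study's own list, so that call is no independent support. 1700012B09Rik had 0 normalized counts in each SPI-24 library, against 33.3, 11.2, 0, 85.1 and 7.99 in the DMSO libraries 1 to 5. By that limit it was at least 6.71-fold lower in SPI-24, or at least 3.20-fold lower without DMSO replicate 4. Its limma interval was -6.54 to -0.78 (unadjusted p = 0.0161, adjusted p = 0.999). In all 3 genes the groups met at 0, because DMSO replicate 3 also had no read.

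Ak8, the second adenylate kinase, had 28.1, 0, 0, 0 and 0 normalized counts in the SPI-24 libraries 1 to 5, against 54.7, 15.8, 0, 66.8 and 12.4 in the DMSO libraries 1 to 5. It thus had reads in 1 SPI-24 library and in 4 DMSO libraries, and on the log2 scale its difference was -2.96 ± 1.55 (SE, limma, adjusted p = 0.999). Ak8 lay below 0 in each alternative fit that tested it. Ak7 did too, but with no read in any SPI-24 library its sign was fixed in every fit without a covariate.

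Radial spokes connect the outer doublets with the central pair. Lrrc23, a spoke protein, had 23.5, 0, 0, 17.8 and 0 normalized counts in the SPI-24 libraries 1 to 5, against 240, 86.1, 0, 163 and 9.45 in the DMSO libraries 1 to 5. The highest SPI-24 value was below 3 of the DMSO values. On the log2 scale its difference was -3.25 ± 1.76 (SE, limma, adjusted p = 0.999). The spoke head genes Rsph1 and Rsph4a had log2 fold changes of -0.83 and -1.06. Rsph1 had reads in all 10 libraries and averaged 55.6 ± 21.9 normalized counts in SPI-24 and 159.9 ± 154 in DMSO (SD, n = 5 each).

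Tektins are filament proteins bound to the doublet microtubules. Tekt1 had 49.0, 185, 12.6, 24.9 and 0 normalized counts in the SPI-24 libraries 1 to 5, against 314, 80.1, 71.8, 141 and 57.1 in the DMSO libraries 1 to 5. All DMSO libraries had reads, and 4 of the SPI-24 libraries were below the lowest of them. On the log2 scale its difference was -2.44 ± 1.31 (SE), with an interval of -5.23 to 0.35 (limma, adjusted p = 0.999). It was -1.36 at the nearest to 0 when 1 library was left out. Tekt4, a tektin best known from the sperm tail, had a log2 fold change of -0.11, with an interval of -1.36 to 1.15. Cfap126, which takes part in placing basal bodies, had -2.22 and Pifo had -1.59.

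Cfap43 and Cfap44 are known from ciliates and algae as a pair that tethers an inner dynein to the doublet. Cfap44 had 136 normalized counts in SPI-24 replicate 2 and 0 in the other 4 SPI-24 libraries, against 95.1, 19.1, 0, 147 and 29.1 in the DMSO libraries 1 to 5. On the log2 scale its difference was -3.19 ± 1.80 (SE, limma, adjusted p = 0.999). Its partner Cfap43 had reads in all 5 SPI-24 libraries, with the highest value of 217 in SPI-24 replicate 5, and a log2 fold change of 1.24. The partners thus lay on opposite sides of 0, and the interval of each contained 0. In the 7 libraries with more than 11 M reads, a choice made after the data had been seen, both lay below 0. Cfap43 was at -0.99 and Cfap44 at -5.76 there, while the other fits that tested them kept them on opposite sides.

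The 4 members of the molecular ruler and the nexin-dynein regulatory complex, Ccdc39, Ccdc40, Drc1 and Ccdc113, had log2 fold changes of 0.10 to 0.55. This sign depended on single libraries. Without DMSO replicate 3, in which each of them had no read, and also by edgeR and DESeq2, 4 of 4 lay below 0. Without SPI-24 replicate 5 it was 3 of 4, without DMSO replicate 2 or SPI-24 replicate 1 it was 2 of 4, and with the choroid plexus level as a covariate it was 0 of 4. Drc1, a scaffold of the regulatory complex, had 79.1, 80.2, 94.3, 58.2 and 617 normalized counts in the SPI-24 libraries 1 to 5, against 675, 158, 0, 242 and 129 in the DMSO libraries 1 to 5. A single SPI-24 library, replicate 5, was high and the other 4 were below every DMSO library other than replicate 3. On the log2 scale its difference was 0.55 ± 1.43 (SE), and -1.03 without DMSO replicate 3.

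**Figure D2:**
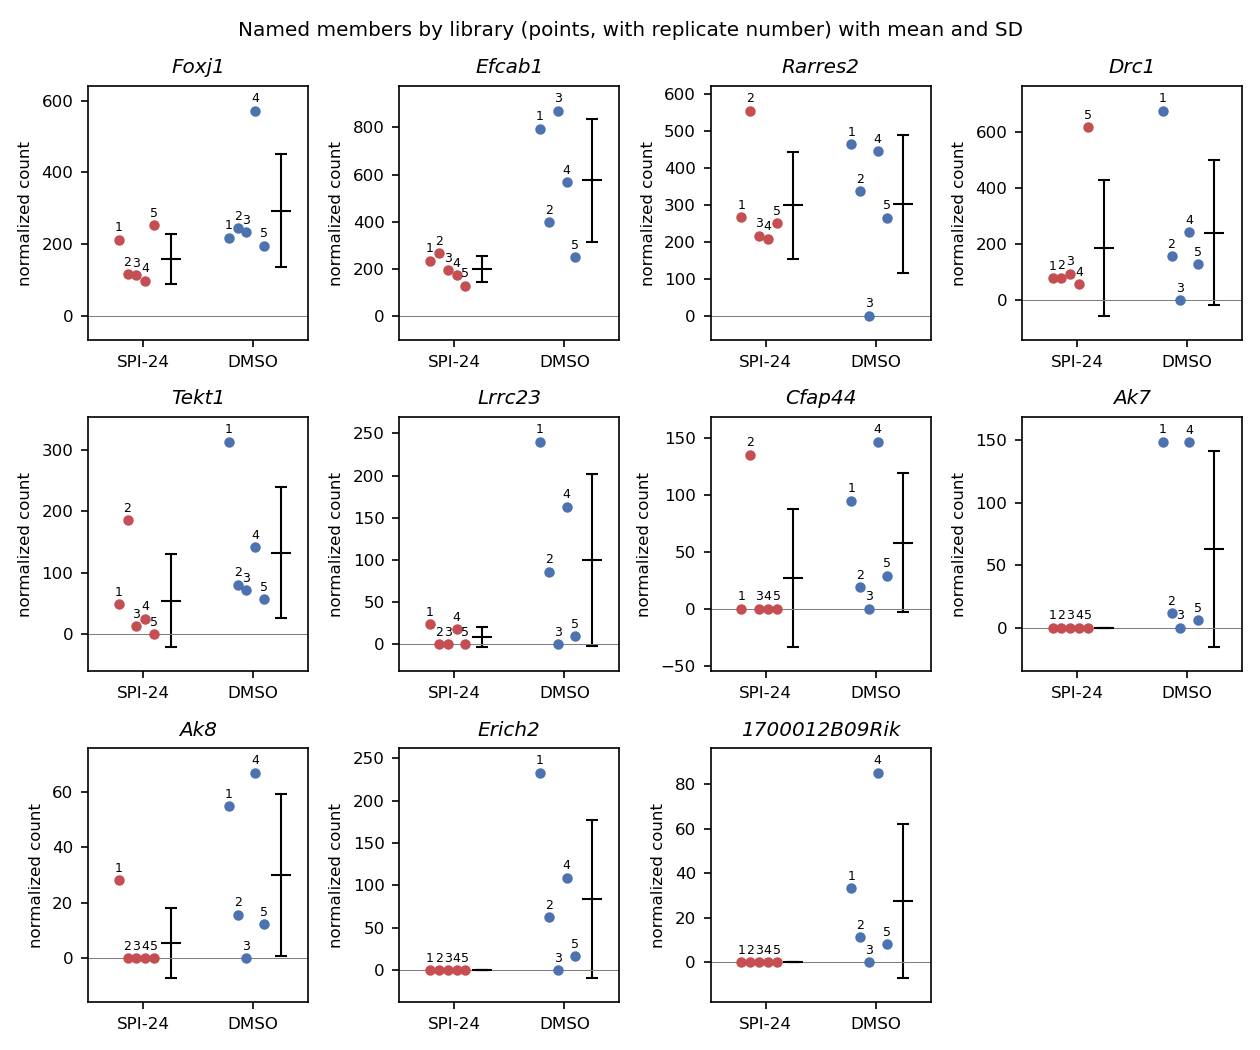
Normalized counts (vertical axis, linear) of the 11 members given by library, with SPI-24 libraries on the left of each panel in red and DMSO libraries on the right in blue, numbered by replicate, and the mean with its SD beside each group. For Efcab1, 4 of the 5 SPI-24 points lie below all DMSO points, and Erich2, Ak7 and 1700012B09Rik are at 0 in each SPI-24 library and in DMSO replicate 3.

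The ependymal marker genes lay on both sides of 0. Rarres2, which encodes the secreted protein chemerin, had 267, 556, 217, 209 and 250.4 normalized counts in the SPI-24 libraries 1 to 5, against 465, 337, 0, 447 and 266 in the DMSO libraries 1 to 5. Apart from SPI-24 replicate 2 and DMSO replicate 3, the SPI-24 values lay between 209 and 267 and the DMSO values between 266 and 465, and the means were 300.1 ± 145 in SPI-24 and 303 ± 188 in DMSO (SD, n = 5 each). On the log2 scale its difference was 1.30 ± 1.35 (SE), set by the 0 in DMSO replicate 3, and -0.40 without that library. Ccdc153 had 863 normalized counts in SPI-24 replicate 2, against a highest DMSO value of 455, and a log2 fold change of 0.37. Tmem212 had reads in 1 SPI-24 library and 3 DMSO libraries, with a log2 fold change of -2.67. Sntn, which encodes sentan of the ciliary tip, had reads in SPI-24 replicate 5 and DMSO replicate 4 alone. Of the 7 markers tested, 4 lay below 0. This number ran from 2 without SPI-24 replicate 3 to 7 without DMSO replicate 3, and it was 3 without SPI-24 replicate 1, SPI-24 replicate 4 or DMSO replicate 4 and with the choroid plexus level as a covariate.

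In the central pair, Hydin had 9.23 normalized counts in SPI-24 replicate 4 and 0 in the other SPI-24 libraries, against 122 and 48.7 in DMSO replicates 4 and 5 and 0 in the other DMSO libraries. Spef2, also of the central pair, had a log2 fold change of 0.70. A row named Spag6, whose identifier ENSMUSG00000022783 belongs to Spag6l in GENCODE M21, was kept apart from the members. Its difference was -1.38 ± 1.77 (SE). Zmynd10, needed to assemble dyneins in the cytoplasm, had -0.78, and the dynein light chain gene Dynlrb2 had -1.15. Among the other ciliary members, Capsl, a calcium-binding protein, had -1.76, Odf3b -0.81, Armc3 -0.71 and Fam183b 0.34, each with an interval that contained 0.

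**Figure D3:**
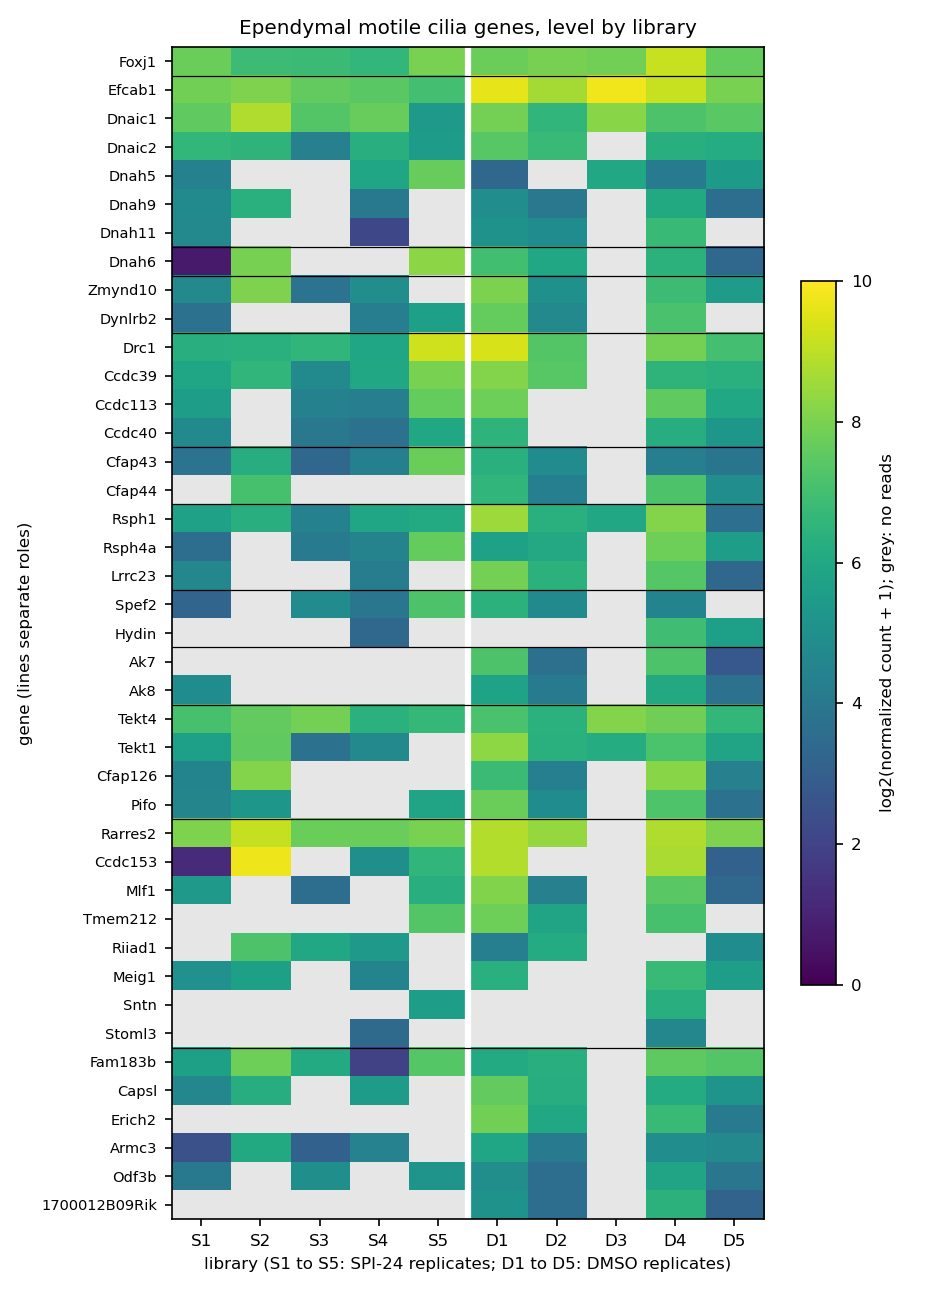
Level of the 41 members in the table (rows, lines separate roles) in the 5 SPI-24 libraries (S1 to S5) and the 5 DMSO libraries (D1 to D5), coloured by log2(normalized count + 1), with grey where a library had no read. D1 and D4 are the fullest and brightest columns, with 3 and 1 members at 0, and D3 has 34 members at 0.

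The members varied more within the DMSO group than between the group means. Their mean log2 level was 3.71 in SPI-24 and 4.77 in DMSO, and it ranged over 1.40 log2 units within SPI-24 and 5.45 within DMSO. Of the 41 members, 9, 18, 20, 12 and 17 had no read in the SPI-24 libraries 1 to 5, against 3, 8, 34, 1 and 6 in the DMSO libraries 1 to 5. DMSO replicates 1 and 4 held the highest value of 27 of the 41. In DMSO replicate 3, 7 members had reads. Depth was set beside these numbers, but its part in them was not tested. Among all 8221 genes in the range of means of the members tested, 31.6% and 28.4% had no read in SPI-24 replicates 2 and 5, at 7.38 and 10.1 M reads, and 43.9% had none in DMSO replicate 3, at 5.48 M. In SPI-24 replicate 3, at 29.6 M reads, 904 of the 8221 genes in the range were at 0, beside 48.8% of the members. In DMSO replicate 1 the shares were 14.4% of the genes and 7.32% of the members.

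**Figure D4:**
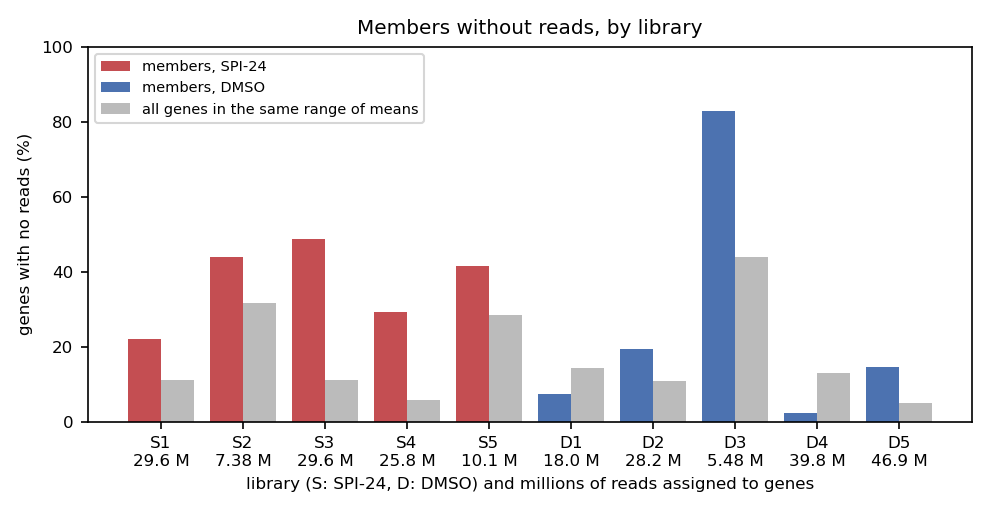
Percent of genes without a read in each library (vertical axis), for the 41 members (red in SPI-24, blue in DMSO) and for the 8221 genes in the same range of means (grey), with the reads assigned to genes under each library. The member bar stands above the grey bar in all 5 SPI-24 libraries and in DMSO replicates 2, 3 and 5, and below it in DMSO replicates 1 and 4.

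As for the other genes in the same range of means, the members were mostly present with many reads or absent. Where a member had reads in a library, it had at least 10 of them in 276 of 282 cases (97.9%), with a median of 80 reads, and 1 to 3 reads in 2 cases. For the genes in the same range of means, 96.7% of the values above 0 rested on at least 10 reads. Reads in all 10 libraries were found for 5 members (12.2%), Foxj1, Dnaic1, Efcab1, Tekt4 and Rsph1, beside 38.2% of the genes in the range. Each of these 5 had a log2 fold change below 0, with a median of -0.83. Of all 10065 genes with at least 10 normalized counts in every library, 49.0% lay below 0. Among the 5, Dnaic1 at -0.13 ± 0.63 (SE) and Tekt4 at -0.11 ± 0.59 (SE) lay well within their errors. Efcab1 is on the study's own list of lower genes. In number of libraries with reads, 18 members had more in DMSO, 10 had more in SPI-24 and 13 had the same number in both groups.

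In the 7 libraries with more than 11 M reads, 3 of SPI-24 and 4 of DMSO, 36 of 40 members lay below 0, with a median of -1.79 beside -0.01 for all genes. At an unadjusted p under 0.05, 15 members were lower in SPI-24, that is 37.5% beside 3.4% of all genes, and again no gene passed the adjusted threshold by limma. The lowest adjusted p of a member there was 0.59. This choice of libraries was made after the data had been seen. It leaves out DMSO replicate 3, in which 34 members were at 0, and also SPI-24 replicates 2 and 5. These 2 had the highest summed normalized counts of the members within SPI-24, at 4637 and 3764. In SPI-24 replicates 1, 3 and 4 the sums were 1853, 1380 and 1455. Replicates 2 and 5 held the highest value of 8 and 4 members, and the other SPI-24 libraries of 0.

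Markers of cells that a punch next to the ventricle can also hold moved with the members in some libraries. The choroid plexus, the tissue that secretes cerebrospinal fluid and also bears cilia, was represented by 18 genes, and 17 of them lay below 0, with a median of -1.08 and 0 passing the test. Their mean log2 level stood 3.44 and 2.97 above the mean of all libraries in DMSO replicates 1 and 4, where the members stood 2.43 and 2.51 above it. Their summed normalized counts ran from 1882 to 31096 in SPI-24 and from 1058 to 194779 in DMSO, and Ttr, the transthyretin gene, was present in all 10 libraries. With the choroid plexus level as a covariate, the median of the members was -0.18, 25 of 40 lay below 0 and 12 were at -1 or less, and no member passed. The lists shared no gene, but the part of the choroid plexus in the result cannot be told apart, since both move with the same DMSO libraries.

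Medium spiny neurons, the main neurons of the striatum, mark striatal tissue in a punch. The summed normalized counts of their 14 genes in the table ran from 7219 to 134430 in SPI-24 and from 7085 to 127243 in DMSO. Their mean log2 level ran from -2.04 to 3.25 around the mean in SPI-24 and from -3.11 to 3.15 in DMSO, and was high in DMSO replicates 1 and 4, as the members were, but also in SPI-24 replicates 2 and 5, at 1.57 and 3.25, where the members stood at -0.10 in each. With this level as a covariate the median of the members was -0.80. Astrocyte genes stayed between -0.46 and 0.44. The part of the place of the punch was not tested beyond these covariates.

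**Figure D5:**
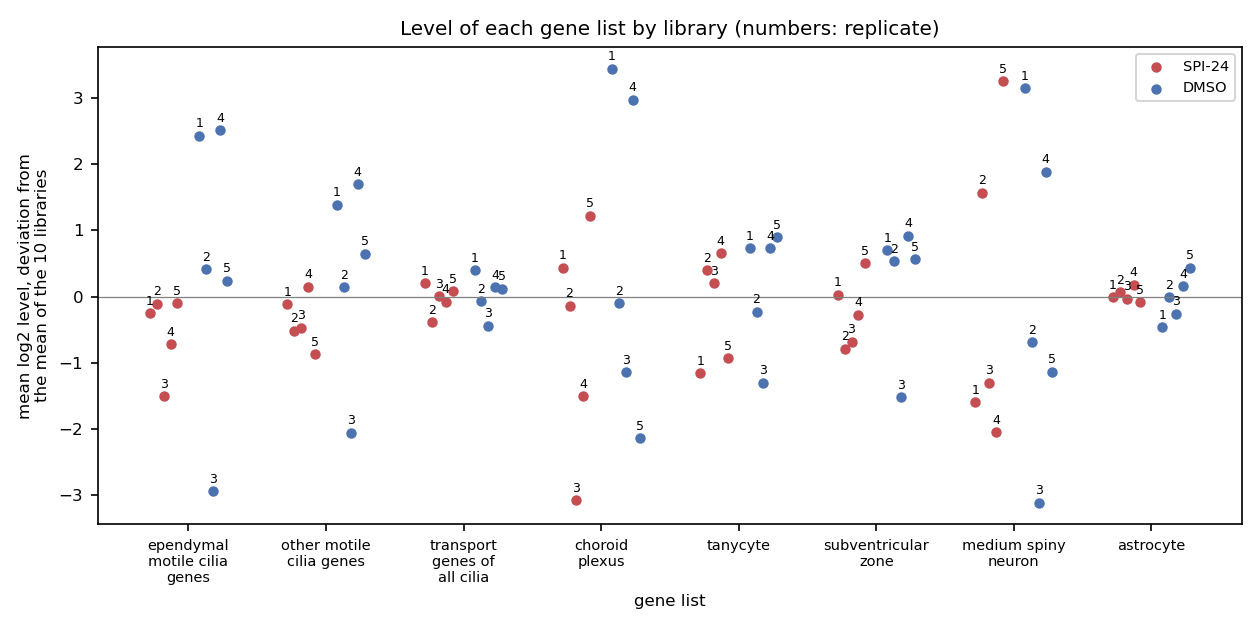
Mean log2 level of each gene list in each library as a deviation from the mean of the 10 libraries (vertical axis), SPI-24 in red on the left and DMSO in blue on the right of each list, numbered by replicate. The ependymal motile cilia genes range over 1.40 log2 units within SPI-24 and 5.45 within DMSO, with DMSO replicates 1 and 4 highest and DMSO replicate 3 lowest, and the choroid plexus genes also have DMSO replicates 1 and 4 highest.

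Other genes of motile cilia that are not members showed a similar median. Their mean log2 level was also highest in DMSO replicates 1 and 4, at 1.39 and 1.69 above the mean of all libraries. It was lowest in DMSO replicate 3, at -2.05, so the median is no separate support. Of 88 listed, 82 were in the table and 63 were tested, none passed in either direction, 46 lay below 0 and the median was -0.75. Cfap57 and Lrriq1, of this list, had no read in any SPI-24 library, which held for 0.523% of all genes tested. Cfap57 had 71.4, 0, 0, 43.3 and 35.6 normalized counts in the DMSO libraries 1 to 5. Both genes passed the limit on the mean through their DMSO values alone. On the other side, 17 lay above 0, with log2 fold changes of 3.18 for Rsph3a and 2.90 for Rfx2, a factor of the RFX family. Rfx2 had reads in 5 SPI-24 and 3 DMSO libraries. The highest of the list, the dynein light chain gene Dnal1, averaged 1534 ± 566 normalized counts in SPI-24 and 1709 ± 517 in DMSO (SD, n = 5 each), with a log2 fold change of -0.18. By contrast, 32 genes of transport within all cilia, which nonmotile cilia of neurons also use, had a median of -0.12, with 20 below 0 and none passing. Whether the lists differed from each other was not tested.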

How the data were processed

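Striatal punches of 10 mice gave stranded libraries of polyadenylated RNA, read as single reads of 50 bases. The authors used cutadapt for trimming and STAR for alignment to GRCm38, discarded multi-mapped reads and those under 30 bases, counted with htseq-count and divided by DESeq2 size factors. Tool versions and the strand setting were not given in the sources used here. What was deposited as signal is this normalized count. The deposited columns of the authors' own fold changes and p-values, and their sheet of thresholds, were not used. Discarding multi-mapped reads lowers genes with near-identical copies, and 9 members overlap a gene of the table on the other strand.

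Reads were recovered from the steps of the deposited signal: 131835 of 131835 values of up to 2000 reads (100%) were whole within 0.1 of a read. Groups and replicate numbers come from the labels. Genes with a mean normalized count of 10 or more, 15871 in all, were fitted in limma 3.58.1 (R 4.3.3, trend, log2 of normalized count + 1), with Benjamini-Hochberg adjustment over all of them and a threshold of 0.05. On the recovered reads, edgeR 4.0.16 called 0 genes by its quasi-likelihood test and DESeq2 1.42.0 called 3. The p-values measure the spread between the 5 libraries of each group. Limits for genes at 0 use 3 reads per library and, like all counting limits, cover counting error only. The steps were tested on simulated data.

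Members given by library are Foxj1, the 8 of smallest unadjusted p, the 4 of highest mean and those that edgeR or DESeq2 called, and the others are given by role. From each other list, the text takes up to 3 genes, those of smallest p and highest mean. Hydin, Ccdc153, Tmem212, Sntn, Cfap43, Dnah6 and Erich2os were also given library values, chosen after these were seen. The members and lists were chosen with earlier results of these data known, among them the study's list of lower genes, so no count here is independent support. Alternatives were edgeR, DESeq2, another pseudocount, filters, no trend, a replicate block, marker levels as covariates and each library left out. Coordinates are from GENCODE M21 and promoters from RefSeq, both on GRCm38. Motifs were searched on both strands, and the usual X-box consensus was added after the windows had been seen. The values of Rsph3a, Rfx2 and the subventricular zone genes above 0 were added outside this rule for lists, after they had been seen.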

Additional observations from a re-analysis of the deposited data

Results flagged for a closer look

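In 7 of the 22 groups examined (5 libraries of 1 condition for each of the 11 members given by library), the highest or lowest library stood far from the rest by Dixon's limit at 95%. Chance alone gives this in about 1 in 20 groups, and genes with many libraries at 0 give it more readily. In SPI-24, the single high libraries were replicate 1 for Ak8 (28.12 normalized counts, the others at 0), replicate 2 for Cfap44 (135.57, the others at 0), replicate 2 for Rarres2 (556.12) and replicate 5 for Drc1 (616.72). In DMSO, replicate 4 stood high for Foxj1 (572.47), and replicate 3 stood low for Rarres2 (0 normalized counts) and for Drc1 (0 normalized counts).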

How the results depend on the processing

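No gene passed by limma or edgeR under any setting, and at an unadjusted p under 0.05 limma gave 354 genes, 4 of them members. DESeq2 called 3 genes, with 1 member, Erich2 (log2 fold change -8.69), by its defaults, and 17 genes, with 2 members, Erich2 (-8.69) and Ak7 (-8.27), without outlier and independent filtering. The cause was not tested. Erich2 and Ak7 are on the study's own list, which was also made with DESeq2, so these calls are no independent support. With at least 10 in every library, 5 members could be tested and 5 lay below 0, beside 49.0% of the 10065 genes so tested. Leaving out each library in turn gave 0 genes and 0 members called, 25 to 36 members below 0 and a median of -1.66 to -0.35. Across all settings the median stayed below 0. Rarres2 (1.30) was -0.042 by edgeR with TMM, -0.026 with the deposited size factors, -0.019 by DESeq2 in both forms and -0.68 in the 7 deeper libraries, a choice made after the data had been seen. Leaving out 1 library gave -0.40 to 1.81, with the lowest value without DMSO replicate 3. Drc1 (0.55) was -0.40 by edgeR with TMM, -0.39 with the deposited size factors, -0.38 by DESeq2 in both forms, -1.65 in the 7 deeper libraries, -1.03 without DMSO replicate 3 and -0.05 without SPI-24 replicate 5, in a range of -1.03 to 1.32. The replicate numbers did not pair the libraries (correlations of their deviations from -0.13 to -0.01), and a replicate block left 29 members below 0 and 0 called, with a median of -0.82. With a median half-width of 3.53 on the log2 scale, most members could not show a change of 2-fold.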

Other observations

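Genes of the subventricular zone, the layer of stem cells and neuroblasts just under the ependyma, were also set beside the members. Of 14 listed, 13 were tested by limma, 7 lay below 0 and 0 passed, with a median of -0.77. Igfbpl1, a gene of neuroblasts, had 0 reads in each SPI-24 library, against 38.1, 88.0, 47.9, 22.6 and 0 normalized counts in the DMSO libraries 1 to 5. It passed the limit on the mean through its DMSO values alone, and 0.523% of all genes tested had no read in SPI-24. Igfbpl1 had reads in DMSO replicate 3, as did 7 of the members. Top2a, the topoisomerase of dividing cells, averaged 0.262 normalized counts in SPI-24 and 26.1 in DMSO, with reads in 1 SPI-24 library and 4 DMSO libraries. The neuronal tubulin gene Tubb3, the highest of the list, averaged 5522 ± 1045 normalized counts in SPI-24 and 4883 ± 1762 in DMSO (SD, n = 5 each), a log2 fold change of 0.27. Other genes of the list lay above 0, with log2 fold changes of 2.54 for Mki67, the other gene of dividing cells, 1.67 for Dcx, 1.19 for Sp9, 1.17 for Sox11 and 1.08 for Dlx2. Mki67 had reads in 4 SPI-24 libraries and 1 DMSO library. Igfbpl1 and Top2a had unadjusted p-values of 0.00664 and 0.0145 by limma, and an adjusted p of 0.999 each.

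Genes of tanycytes, the ependymal cells of the third ventricle, which carry few cilia, had a median of -0.19 over 7 genes tested, 4 of them below 0. The deepest library, DMSO replicate 5, stood 0.24 above the mean for the members while the choroid plexus genes stood at -2.13 there. In SPI-24 replicate 5 the choroid plexus genes stood at 1.22 and the members at -0.10.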
